A study of Caenorhabditis elegans with 8 samples.

Results

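The 8 genes described here, *mtl-1*, *mtl-2*, *ftn-1*, *ftn-2*, *smf-3*, *cdr-1*, *cdr-2* and *cdr-4*, were chosen by name as *Caenorhabditis elegans* genes of metal and iron homeostasis, and all 8 were found among the 42048 genes of the count table. RNA-seq had been done on 4 groups of L4 stage worms with 2 libraries each: *nhr-49*(*nr2041*) worms after 4 hr in tBOOH at 7.5 mM, untreated *nhr-49*(*nr2041*) worms, wild-type N2 worms exposed to the same tBOOH treatment, and untreated N2 worms. All worms grew on the *E. coli* strain OP50. tBOOH (tert-butyl hydroperoxide) is an organic peroxide used to cause oxidative stress, and *nhr-49* encodes a nuclear hormone receptor known for its part in lipid metabolism; *nr2041* is a null allele carried in every cell of the worm. The libraries of each group are numbered 1 and 3. The study calls its replicates biological, while the labels do not say how the cultures were kept apart, and the p-values measure the spread between these libraries.

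Metals such as iron, zinc and copper are needed as enzyme cofactors but are toxic in excess, and iron that is not bound can react with peroxides. Cells therefore bind spare metal in storage proteins, control its entry and exit through membrane transporters, and adjust the transcription of both sets of genes. In worms the intestine is a main site of this control: metallothioneins are small cysteine-rich proteins that bind cadmium, zinc and copper, ferritins are shells that store iron, SMF-3 is a homologue of the mammalian iron and manganese importer DMT1, and the *cdr* genes take their name from the induction of *cdr-1* by cadmium.

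Of the 8 genes, *cdr-4* rose with tBOOH in both genotypes, 10.1-fold in *nhr-49* worms and 4.32-fold in wild-type worms. The ferritin gene *ftn-1* and the metallothionein gene *mtl-1* passed the test only within the *nhr-49* worms. Both were close to the counting floor in the untreated *nhr-49* libraries, and the difference between the genotypes was not past the threshold for either. *mtl-1* entered the test only through the tBOOH *nhr-49* libraries in which it was high, so its call is a weak one. The remaining 5 genes, *mtl-2*, *ftn-2*, *smf-3*, *cdr-1* and *cdr-2*, passed the test in none of the comparisons. A call is an adjusted p under 0.05 in edgeR's exact test, with Benjamini-Hochberg adjustment over the 14334 genes kept by the filter on low counts. Levels are given as CPM, the counts of a gene relative to the size of its library, scaled by TMM, and each SD is over 2 libraries.

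**Figure D1:**
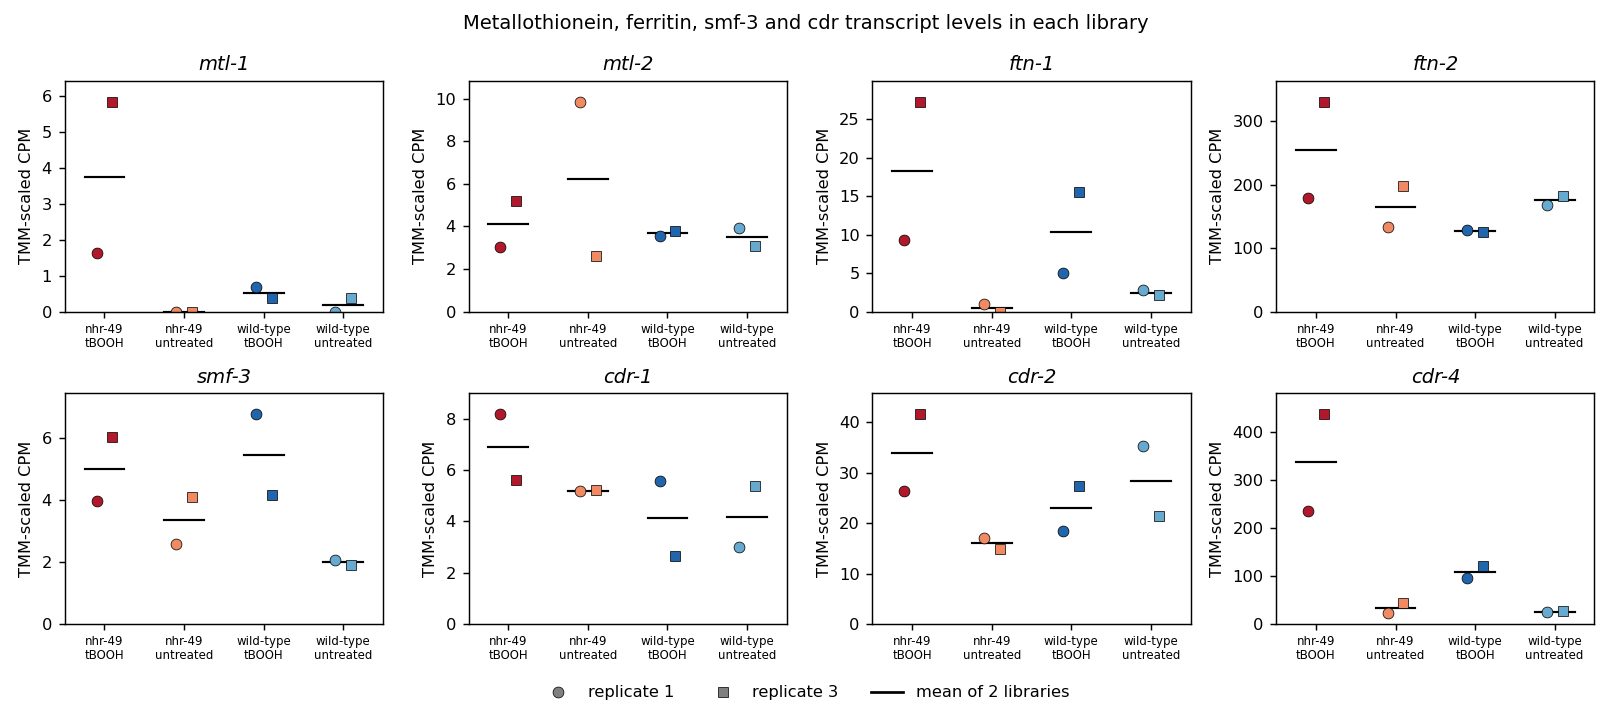
Levels of the 8 genes in each library, in TMM-scaled CPM on linear axes that start at 0 and differ between panels. Circles are replicate 1, squares are replicate 3 and the line is the mean of the 2 libraries. For *cdr-4* both tBOOH *nhr-49* libraries (236 and 437 CPM) lie above both tBOOH wild-type libraries (96.3 and 120 CPM), and all 4 untreated libraries lie at or below 43.9 CPM.

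The libraries held 2157766 to 5852727 counts each, and the 2 smallest were the untreated *nhr-49* libraries. A floor of 3 counts corresponds to 0.508 to 1.55 CPM, highest in untreated *nhr-49* replicate 1, so weakly expressed genes of the list are measured least precisely in that group. The *nhr-49* transcript itself was at 30.2 ± 3.55 CPM in tBOOH *nhr-49* worms against 109 ± 1.44 CPM in tBOOH wild-type worms, and at 28.7 ± 10.5 CPM in untreated *nhr-49* worms against 67.3 ± 1.73 CPM in untreated wild-type worms (SD, n = 2 each). The count covers the whole gene, not the deleted stretch alone. The 4 vitellogenin genes *vit-2*, *vit-4*, *vit-5* and *vit-6* were used as yolk markers of the adult intestine. Their summed transcripts were at 3503 and 777 CPM in the tBOOH and untreated *nhr-49* libraries of replicate 3, against 21840 to 82833 CPM in the other 6 libraries. These 2 libraries therefore stand apart, and each metal gene called in a comparison that uses them is also given without both. Leaving out both leaves 1 library in each *nhr-49* group, and the spread is then estimated from the wild-type libraries alone. P-values from those fits therefore measure no spread between *nhr-49* libraries. Whether the libraries differed in developmental stage was not tested. Of 9 intestine marker genes, all had counts in every group, and their sum was 7344 to 8398 CPM in tBOOH *nhr-49*, 9838 to 12308 CPM in untreated *nhr-49*, 4857 to 6410 CPM in tBOOH wild-type and 9343 to 10371 CPM in untreated wild-type libraries. *asp-1* made up the largest part of the sum, which hides changes of single markers. With tBOOH, *act-5* was called lower in wild-type (6.78-fold) and *nhr-49* worms (4.53-fold). *pept-1* (3.99-fold) and *ges-1* (2.32-fold) were called lower in *nhr-49* worms only. *cpr-1* was called higher in wild-type worms only (2.68-fold, all by edgeR's exact test). Neither genotype comparison called any of the 9. Their part in the metal gene values was not tested. In whole worms, fewer cells of a type and less RNA per cell cannot be told apart.

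The metallothionein genes were weakly represented. *mtl-1* (WBGene00003473, chromosome V) had 7 and 28 counts in the tBOOH *nhr-49* libraries of replicates 1 and 3, against 0 and 0 counts in the untreated *nhr-49* libraries. The wild-type libraries held 4 and 2 *mtl-1* counts with tBOOH, against 0 and 2 without. Only the tBOOH *nhr-49* libraries therefore held more *mtl-1* counts than a few reads, and the gene passed the filter only through them. In CPM, *mtl-1* was at 1.63 and 5.83 in tBOOH *nhr-49* worms. The mean of 3.73 was 2.79-fold the mean floor of 3 counts per library in untreated *nhr-49* worms. Replicate 1 alone, at 1.63, was close to the floor of 1.55 in untreated *nhr-49* replicate 1. The call (adjusted p = 0.0216, edgeR's exact test) compares with 0 counts, not with this floor. Since *mtl-1* entered the test only through the group in which it was high, this call is a weak one. It was lost in 7 of the 12 alternatives that gave an adjusted p, and without tBOOH *nhr-49* replicate 3, which holds most of the reads, the adjusted p was 0.318. Leaving out untreated *nhr-49* replicate 1 or replicate 3 gave 0.118 and 0.269, and leaving out both *nhr-49* libraries of replicate 3 gave 0.576. In wild-type worms the pooled counts of 6 with tBOOH and 2 without give a ratio of 2.56 with an exact 95% counting interval of 0.459 to 26.0, so no change was detectable at this depth. Under tBOOH, *mtl-1* differed between *nhr-49* and wild-type worms by 2.76 on the log2 scale (SE 1.09), which missed the threshold (adjusted p = 0.272, edgeR's exact test). It passed only without tBOOH *nhr-49* replicate 1 (log2 difference 3.40). Replicate 3 was then the only tBOOH *nhr-49* library, and the spread came from the other groups.

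*mtl-2* (WBGene00003474, chromosome V), the other metallothionein gene, had 13 and 25 counts in tBOOH *nhr-49* libraries and 19 and 7 in untreated *nhr-49* libraries. It had 21 and 20 counts in tBOOH wild-type libraries and 17 and 16 in untreated wild-type libraries. Its level in CPM was 3.04 and 5.20 in tBOOH *nhr-49*, against 9.84 and 2.60 in untreated *nhr-49*, so the groups overlapped and the highest and the lowest *mtl-2* level of the series were both in untreated *nhr-49* worms. In wild-type worms *mtl-2* was at 3.55 and 3.79 CPM with tBOOH, against 3.91 and 3.07 CPM without. The log2 fold changes with tBOOH were -0.55 (SE 0.73) in *nhr-49* and 0.08 (SE 0.71) in wild-type worms. Both values are smaller than their SE, and the log2 difference of *mtl-2* between *nhr-49* and wild-type worms was 0.79 (SE 0.73) untreated and 0.17 (SE 0.71) with tBOOH, neither called. Per length, *mtl-1* made up 33.4 and 51.0% of the pair in the tBOOH *nhr-49* libraries, against 0% in both untreated *nhr-49* libraries, and at most 15.1% in any wild-type library.

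The 2 ferritin genes were present at very different levels. *ftn-1* (WBGene00001500, chromosome V), the ferritin gene known for its control by iron in the intestine, had 40 and 131 counts in tBOOH *nhr-49* libraries, against 2 and 0 counts in untreated *nhr-49* libraries. The wild-type libraries held 30 and 82 *ftn-1* counts with tBOOH, against 12 and 11 without. Every tBOOH library thus held more *ftn-1* reads than every untreated library, whatever the genotype, and replicate 3 was the higher of the tBOOH libraries in both genotypes. In *nhr-49* worms *ftn-1* was at 9.34 and 27.3 CPM with tBOOH, against 1.04 and 0 CPM without. The pooled ratio was 43.5 with an exact 95% counting interval of 11.8 to 362, which covers counting error only, and the call passed the test (adjusted p = 0.000412, edgeR's exact test). This was kept in 11 of 14 alternatives and lost without untreated *nhr-49* replicate 3 (adjusted p = 0.0606), without both *nhr-49* libraries of replicate 3 (0.232) and in the quasi-likelihood test (0.0625).

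In wild-type worms *ftn-1* was at 5.08 and 15.5 CPM with tBOOH, against 2.76 and 2.11 CPM without, a log2 fold change of 2.07 (SE 0.82) that did not pass the test (adjusted p = 0.165, edgeR's exact test). With dispersions estimated from the 4 wild-type libraries alone it did (adjusted p = 0.0141). The replicates differed in size: the *ftn-1* ratio of tBOOH to untreated was 1.84 in replicate 1 and 7.37 in replicate 3. Between the untreated groups, *ftn-1* had 2 counts in *nhr-49* worms and 23 in wild-type worms over the pooled libraries, a ratio of 0.180 with a counting interval of 0.0206 to 0.729, and the exact test across replicates did not call it (adjusted p = 0.829). With tBOOH the *nhr-49* and wild-type ranges of *ftn-1* overlapped (log2 fold change 0.83, adjusted p = 0.882 in the exact test), and the sign of this difference turned to -0.14 without tBOOH *nhr-49* replicate 3. The genotype-by-treatment interaction of *ftn-1*, which tests whether the responses differ, was 3.21 on the log2 scale with an unadjusted p of 0.0599 (quasi-likelihood test); that value rests on the untreated *nhr-49* libraries near the floor and depends on the prior count.

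*ftn-2* (WBGene00001501, chromosome I), which encodes the more abundant ferritin, did not pass the test in any comparison. It was at 179 and 330 CPM in tBOOH *nhr-49* worms, against 133 and 197 CPM in untreated *nhr-49* worms. It was at 129 and 126 CPM in tBOOH wild-type worms, against 168 and 182 CPM in untreated wild-type worms. So the *ftn-2* levels overlapped between the *nhr-49* groups, while in wild-type worms both tBOOH libraries were below both untreated ones. The log2 fold changes of *ftn-2* with tBOOH were 0.62 (SE 0.41, adjusted p = 0.551) in *nhr-49* and -0.46 (SE 0.41, adjusted p = 0.674) in wild-type worms, both by edgeR's exact test. The interaction of *ftn-2* was 1.08 on the log2 scale, with an unadjusted p of 0.0476 that did not survive adjustment (adjusted p over 14334 genes 0.999997, quasi-likelihood test). Under tBOOH, both *nhr-49* libraries had more *ftn-2* than both wild-type libraries, with a log2 difference of 1.0 (SE 0.41) that missed the threshold (adjusted p = 0.290, edgeR's exact test). It passed only without tBOOH *nhr-49* replicate 1 (log2 difference 1.37), so 1 library decides this call. Replicate 3 was then the only tBOOH *nhr-49* library, and the spread came from the other groups.

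Set per length, *ftn-2* was the highest of the 8 genes in every group, at 391 ± 164 CPM per kb in tBOOH *nhr-49*, 253 ± 70.1 in untreated *nhr-49*, 196 ± 3.59 in tBOOH wild-type and 269 ± 14.6 in untreated wild-type worms (SD, n = 2 each). Only in tBOOH *nhr-49* worms did a second gene reach its range, *cdr-4* with 349 ± 148 CPM per kb. The share of *ftn-1* in the ferritin pair, per length, was 5.31 and 8.15% in tBOOH *nhr-49* libraries, against 0.832 and 0% in untreated *nhr-49* libraries. The wild-type share was 4.05 and 11.7% with tBOOH, against 1.73 and 1.23% without. The ferritin transcripts were thus nearly all *ftn-2* without tBOOH, and in each genotype the *ftn-1* share was larger in both tBOOH libraries than in both untreated libraries.

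*smf-3* (WBGene00004878, chromosome IV), the importer of iron and manganese at the intestinal surface, had 17 and 29 counts in tBOOH *nhr-49* libraries, against 5 and 11 in untreated *nhr-49* libraries. It had 40 and 22 counts in tBOOH wild-type libraries, against 9 and 10 in untreated wild-type libraries. In CPM, *smf-3* was at 3.97 and 6.04 in tBOOH *nhr-49*, against 2.59 and 4.09 in untreated *nhr-49* worms, which overlap. In wild-type worms it was at 6.77 and 4.17 CPM with tBOOH, against 2.07 and 1.92 CPM without, which do not overlap. The log2 fold change of *smf-3* was 0.55 (SE 0.64, adjusted p = 0.870) in *nhr-49* and 1.45 (SE 0.62, adjusted p = 0.206) in wild-type worms, neither past the threshold of edgeR's exact test. No alternative tried for these tBOOH comparisons called *smf-3*. Between *nhr-49* and wild-type worms its log2 difference was 0.76 (SE 0.69) untreated and -0.13 (SE 0.57) with tBOOH, neither called.

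The 3 *cdr* genes gave 3 different pictures, with one clear tBOOH response. *cdr-4* (WBGene00010470, chromosome V) was at 236 and 437 CPM in tBOOH *nhr-49* worms, against 22.3 and 43.9 CPM in untreated *nhr-49* worms. In wild-type worms it was at 96.3 and 120 CPM with tBOOH, against 23.9 and 26.1 CPM without. These levels come from 1012 and 2102 counts, against 43 and 118 counts, in *nhr-49* and from 569 and 634, against 104 and 136, in wild-type libraries. No tBOOH library overlapped an untreated one, and both tBOOH *nhr-49* libraries were above both tBOOH wild-type libraries.

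The rise of *cdr-4* with tBOOH was 3.34 on the log2 scale in *nhr-49* worms (SE 0.46, adjusted p = 1.2e-08) and 2.11 in wild-type worms (SE 0.46, adjusted p = 0.000686), both by edgeR's exact test. Within replicates, the *cdr-4* ratio was 10.6 and 9.97 in *nhr-49* and 4.02 and 4.61 in wild-type worms for replicates 1 and 3, so in *nhr-49* worms the ratios of the replicates lay closer together than their levels did. The *nhr-49* call was kept in all 14 alternatives, where the highest adjusted p was 0.012 (quasi-likelihood test). Without both *nhr-49* libraries of replicate 3 the rise was 3.41 on the log2 scale, in a fit with 1 library in each *nhr-49* group. The wild-type call was kept in 11 of 13 and lost when either untreated wild-type library was left out, with an adjusted p of 0.116 without replicate 1 and 0.129 without replicate 3 and fold changes close to the full value (2.05 and 2.18 on the log2 scale). With 1 untreated library left, its spread is assumed to equal that of the other groups.

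Between genotypes, untreated *cdr-4* levels overlapped (log2 difference 0.41, SE 0.47). With tBOOH, *cdr-4* averaged 337 ± 142 CPM in the mutant and 108 ± 16.9 CPM in wild-type worms (SD, n = 2 each), a 3.11-fold difference that passed edgeR's exact test (log2 1.64, SE 0.45, adjusted p = 0.0234). That call is less stable than the responses themselves. It was lost in the quasi-likelihood test (adjusted p = 0.177) and when tBOOH wild-type replicate 1 or 3, or tBOOH *nhr-49* replicate 3, was left out. With these libraries left out in turn, the log2 differences were 1.49, 1.81 and 1.13. Without both *nhr-49* libraries of replicate 3, which leaves 1 library in each *nhr-49* group, the difference was 1.13. Hypodermis marker genes moved in the same comparison: 4 of 6 (*dpy-7*, *dpy-8*, *rol-6* and *sqt-3*) were called higher, by 2.32 to 3.02 on the log2 scale, and the 6 markers summed to 604 to 1420 CPM in tBOOH *nhr-49* and 192 to 560 CPM in tBOOH wild-type libraries. Of all genes kept, 1.79% were called higher in that comparison. In tBOOH against untreated wild-type worms 5 of the 6 were called lower, beside 3.14% of all genes, where the untreated sum was 1467 to 2319 CPM. In tBOOH against untreated *nhr-49* worms none of the 6 was called, and the lowest adjusted p was 0.0991 (*dpy-10*, edgeR's exact test). All of these markers but *col-14* had lower fitted values with tBOOH there, and the untreated *nhr-49* sum was 1319 to 1763 CPM. The part of the markers in the *cdr-4* values was not tested. The difference between the 2 responses was 1.22 on the log2 scale with an unadjusted p of 0.0562 and an adjusted p of 0.999997 (quasi-likelihood test), so a larger *cdr-4* response in *nhr-49* worms was not established.

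*cdr-1* (WBGene00000412, chromosome V), the cadmium-induced lysosomal protein gene of the intestine after which the family is named, was at 8.17 and 5.62 CPM in tBOOH *nhr-49* worms, against 5.18 and 5.21 CPM in untreated *nhr-49* worms. It was at 5.58 and 2.65 CPM in tBOOH wild-type worms, against 2.99 and 5.36 CPM in untreated wild-type worms. In wild-type worms the 2 replicates went opposite ways, with *cdr-1* ratios of 1.87 and 0.494, and the fitted log2 fold change was -0.02 (SE 0.61). In *nhr-49* worms it was 0.40 (SE 0.63, adjusted p = 0.937, edgeR's exact test). The *cdr-1* difference between *nhr-49* and wild-type worms was 0.30 (SE 0.64) untreated and 0.73 (SE 0.59) with tBOOH on the log2 scale, neither called.

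*cdr-2* (WBGene00008296, chromosome V), a further gene of the family, was at 26.4 and 41.6 CPM in tBOOH *nhr-49* worms, against 17.1 and 14.9 CPM in untreated *nhr-49* worms. It was at 18.4 and 27.5 CPM in tBOOH wild-type worms, against 35.4 and 21.5 CPM in untreated wild-type worms. The *nhr-49* groups did not overlap, but the *cdr-2* log2 fold change of 1.09 (SE 0.47) missed the threshold (adjusted p = 0.217, and 0.769 without both *nhr-49* libraries of replicate 3, edgeR's exact test), and the wild-type groups overlapped (log2 fold change -0.31, SE 0.45, adjusted p = 0.849). Untreated *cdr-2* levels were lower in both *nhr-49* libraries than in both wild-type libraries, by 0.83 on the log2 scale, which is not past the threshold (adjusted p = 0.791, edgeR's exact test). Its interaction was 1.40 on the log2 scale with an unadjusted p of 0.0351 and an adjusted p of 0.999997 (quasi-likelihood test).

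**Figure D2:**
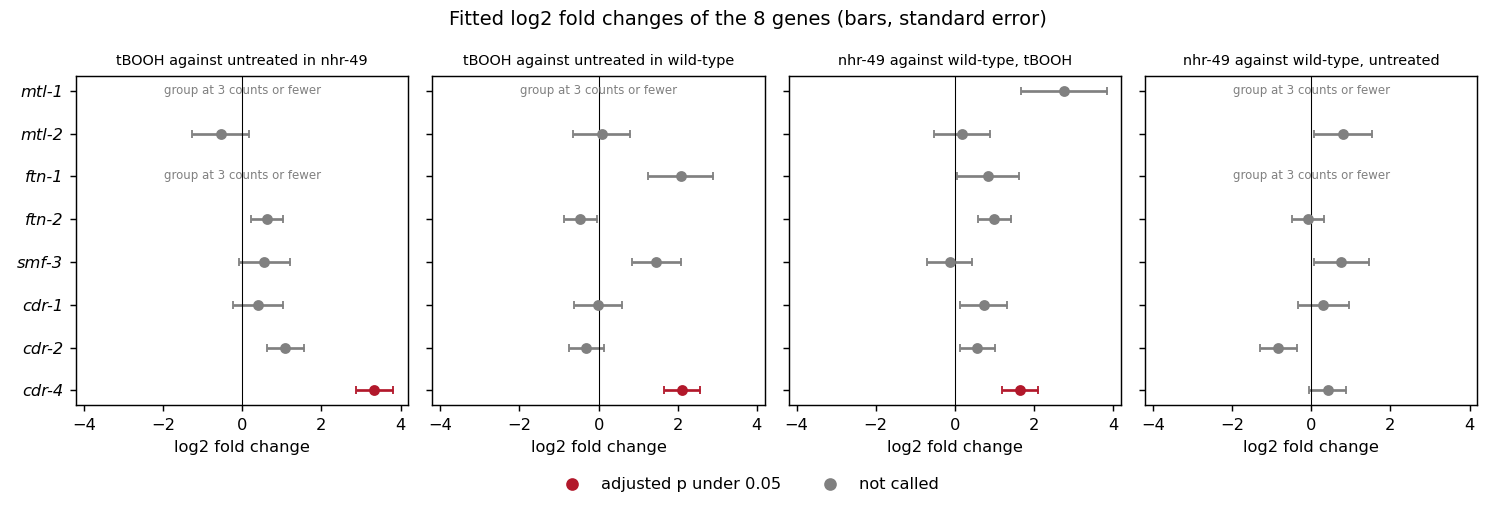
Fitted log2 fold changes of the 8 genes in the 4 comparisons, with standard errors as bars. Red marks an adjusted p under 0.05, and *cdr-4* is red in 3 of the 4 panels; no point is drawn where a group held 3 counts or fewer in each library, which is the case for *mtl-1* and *ftn-1* in tBOOH against untreated *nhr-49* worms, where both genes were called.

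Counted over the list, 3 of the 8 genes were called higher with tBOOH in *nhr-49* worms (*mtl-1*, *ftn-1* and *cdr-4*) and none lower, where 390 of all 14334 genes (2.72%) were called higher and 274 (1.91%) lower. Since *mtl-1* entered the test only through the group in which it was high, nothing is read from the size of this count. In wild-type worms 1 of the 8 (*cdr-4*) was called higher and none lower, against 316 genes (2.2%) called higher and 450 (3.14%) lower. Between the untreated genotypes none of the 8 was called by edgeR's exact test, DESeq2 or the quasi-likelihood test. None had an unadjusted p under 0.05 in the exact test, beside 1084 of all 14334 genes. Over all genes 115 (0.802%) were called higher in *nhr-49* worms and 28 (0.195%) lower. Under tBOOH 1 of the 8 (*cdr-4*) was called higher in the mutant than in wild-type worms, against 256 genes (1.79%) higher and 73 (0.509%) lower. In the interaction, the quasi-likelihood test called 0% of the 14334 genes. At an unadjusted p under 0.05 there were 523 genes, 2 of them on the list (*ftn-2* and *cdr-2*). The likelihood ratio test called 11 genes, none of them among the 8. DESeq2 called 16 genes, but of the 8 it gave an adjusted p only for *ftn-2*, *cdr-2* and *cdr-4*, and called none of these. The 2 tBOOH comparisons share no library, whereas each genotype comparison shares a group with each of them.

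**Figure D3:**
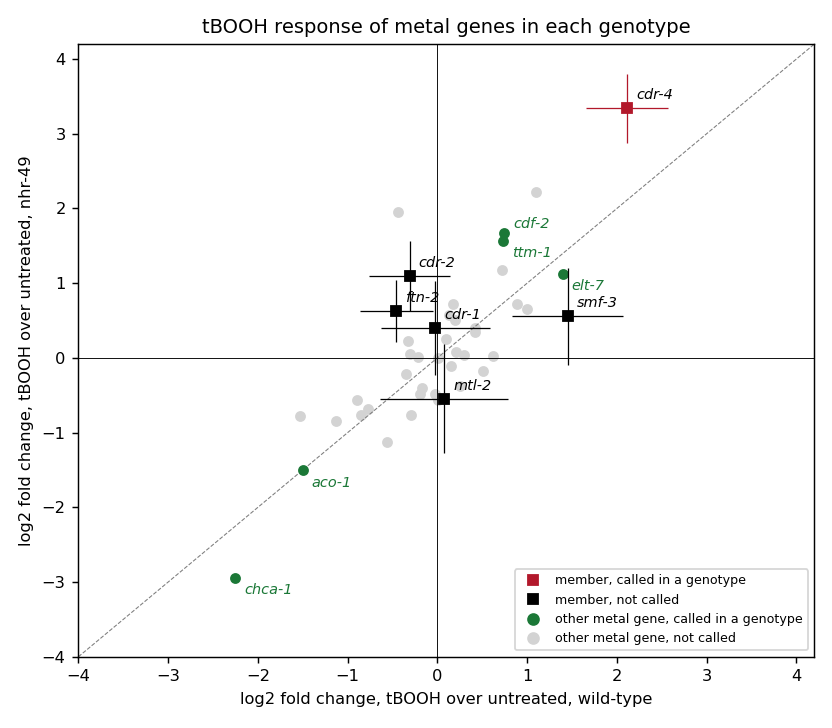
Log2 fold change with tBOOH in wild-type worms (horizontal) and in *nhr-49* worms (vertical) for 6 of the 8 genes (squares, bars show the standard error) and 38 other metal-homeostasis genes (circles); genes with a group at or under 3 counts per library are left out, and the dashed line marks equal responses. *cdr-4* lies at 2.11 and 3.34, *chca-1* at the opposite end at -2.26 and -2.94, and *aco-1* on the line at -1.50 in both genotypes.

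A wider list of 57 metal-homeostasis genes outside the 8 gives the setting. Of these, 50 were found in the count table and 43 passed the filter. With tBOOH in *nhr-49* worms 2 of the 43 were called higher and 2 lower, beside 2.72% and 1.91% of all genes, with a median log2 fold change of -0.01, beside 0.04 over all genes. In wild-type worms 1 of the 43 was called higher and 3 lower, beside 2.2% and 3.14% of all genes, with a median of 0.01, beside 0.05 over all genes. None of the 43 was called in either genotype comparison or in the interaction by the main tests. An unadjusted p under 0.05 was found for 1 of the 43 in the untreated genotype comparison, beside 1084 of all 14334 genes. With tBOOH it was found for 5, beside 1393 (both exact test), and in the interaction for 1, beside 523 (quasi-likelihood test).

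The 2 genes called higher in *nhr-49* worms, *cdf-2* and *ttm-1*, encode zinc transporters of the cation diffusion facilitator family, which move zinc out of the cytosol. *cdf-2* was at 63.5 and 114 CPM in tBOOH *nhr-49* libraries, against 29.5 and 26.4 CPM in untreated *nhr-49* libraries (log2 fold change 1.67, SE 0.41, adjusted p = 0.00417, edgeR's exact test). In wild-type worms *cdf-2* was at 36.4 and 45.3 CPM with tBOOH, against 25.3 and 23.4 CPM without, and was not called (0.75, adjusted p = 0.373 in the exact test). *ttm-1* was at 49.7 and 45.8 CPM in tBOOH *nhr-49* libraries, against 15.02 and 17.1 CPM in untreated *nhr-49* libraries (1.56, adjusted p = 0.00516 in the exact test). In wild-type worms *ttm-1* was at 25.5 and 19.3 CPM with tBOOH, against 15.4 and 11.7 CPM without (0.73, adjusted p = 0.355 in the exact test). For both zinc transporters no tBOOH library overlapped an untreated one in either genotype, and the interaction was not past the threshold (0.93 for *cdf-2* and 0.84 for *ttm-1* on the log2 scale, unadjusted p 0.0849 and 0.0957, quasi-likelihood test). The *cdf-2* call was lost without either *nhr-49* library of replicate 3 (adjusted p = 0.102 without the untreated and 0.100 without the tBOOH library) and without both (0.161), and the *ttm-1* call without untreated *nhr-49* replicate 3 (0.0562), while without both libraries *ttm-1* was kept (0.0283). Both calls were also lost in the quasi-likelihood test (0.0566 each) and with dispersions from the 4 *nhr-49* libraries alone (0.108 for *cdf-2* and 0.151 for *ttm-1*).

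*aco-1* and *chca-1* fell with tBOOH in both genotypes. *aco-1* encodes the cytosolic aconitase, the worm homologue of the mammalian iron regulatory protein, and was at 142 and 125 CPM in tBOOH *nhr-49* libraries, against 322 and 435 CPM in untreated *nhr-49* libraries. In wild-type worms *aco-1* was at 153 and 106 CPM with tBOOH, against 334 and 398 CPM without. It fell by 1.50 on the log2 scale in each genotype (adjusted p = 0.00485 in *nhr-49* and 0.00424 in wild-type worms, edgeR's exact test). The *aco-1* call in wild-type worms was lost when any 1 of the 4 libraries was left out, with adjusted p from 0.0531 to 0.287, and in *nhr-49* worms without the untreated (0.0761) or the tBOOH library of replicate 3 (0.108), without both (0.115) and with dispersions from the 4 *nhr-49* libraries alone (0.126).

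*chca-1*, a gene of the CTR1 family of copper importers listed in the count table under its sequence name F58G6.9, was at 3.50 and 3.95 CPM in tBOOH *nhr-49* libraries, against 20.2 and 37.2 CPM in untreated *nhr-49* libraries. Its wild-type levels were 4.74 and 4.36 CPM with tBOOH, against 21.4 and 22.2 CPM without. *chca-1* had a log2 fold change of -2.94 in *nhr-49* (adjusted p = 4.26e-06) and of -2.26 in wild-type worms (adjusted p = 0.000517), by edgeR's exact test. The *nhr-49* call was kept in all 14 alternatives (adjusted p = 0.00434 without both *nhr-49* libraries of replicate 3), and the wild-type call was lost without untreated wild-type replicate 3 (adjusted p = 0.0508) or either tBOOH wild-type library (0.0874 and 0.0878).

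Of the other 2 genes called in wild-type worms, *hrg-4* encodes a heme importer of the intestine and *elt-7* a GATA transcription factor of the intestine. *hrg-4* had 1 and 0 counts with tBOOH, against 16 and 20 counts without, in wild-type libraries, a pooled ratio of 0.0237 with an exact 95% counting interval of 0.000585 to 0.141 (adjusted p = 0.0257, edgeR's exact test). In *nhr-49* worms *hrg-4* had 1 and 6 counts with tBOOH, against 3 and 37 counts without, and was not called (adjusted p = 0.0866 in the exact test). It was called lower only without untreated *nhr-49* replicate 1 (log2 fold change -4.12), so 1 library decides this. Replicate 3 was then the only untreated *nhr-49* library, and the spread came from the other groups. Without both *nhr-49* libraries of replicate 3 the adjusted p of *hrg-4* was 0.633. *elt-7* was at 13.2 and 12.9 CPM in tBOOH wild-type libraries, against 5.52 and 4.41 CPM in untreated wild-type libraries (log2 fold change 1.39, SE 0.45, adjusted p = 0.0464, edgeR's exact test), and at 14.9 and 16.6 CPM in tBOOH *nhr-49*, against 8.29 and 6.32 CPM in untreated *nhr-49* libraries (1.12, adjusted p = 0.188 in the exact test). Both wild-type calls were lost when any 1 of the 4 libraries was left out, with adjusted p from 0.122 to 0.467 for *hrg-4* and from 0.296 to 0.698 for *elt-7*. Over all 13 alternatives *hrg-4* was kept in 7 and *elt-7* in 4.

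*cdr-4* and *cdr-2* lie in a row of 6 protein-coding genes on one strand of chromosome V in the WBcel235 annotation, in the order *cdr-4*, *hrg-2*, *cdr-7*, *cdr-6*, *cdr-2* and *cdr-3*, whereas *cdr-1* lies elsewhere on that chromosome. The neighbours are shown because they share a place with *cdr-4*, and *hrg-2* was singled out after its values were seen. *hrg-2*, known for its induction when heme is scarce, was at 6.07 and 26.2 CPM in tBOOH *nhr-49* libraries, against 1.55 and 5.21 CPM in untreated *nhr-49* libraries, and at 2.88 and 2.65 CPM in tBOOH wild-type, against 0 and 2.49 CPM in untreated wild-type libraries. It was called in neither genotype (adjusted p = 0.339 in *nhr-49* and 0.745 in wild-type worms, edgeR's exact test), and most of its reads were in tBOOH *nhr-49* replicate 3. *cdr-6* was at 24.3 and 17.9 CPM in tBOOH *nhr-49*, against 40.4 and 51.7 CPM in untreated *nhr-49* libraries (log2 fold change -1.13, adjusted p = 0.164 in the exact test), and *cdr-7* had a log2 fold change of -0.77 in *nhr-49* and -0.85 in wild-type worms, neither called. *cdr-3* had at most 1 count in any library and did not pass the filter. Within this row *cdr-4* was therefore the gene called with tBOOH, and its neighbours had fitted values on both sides of 0.

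**Figure D4:**
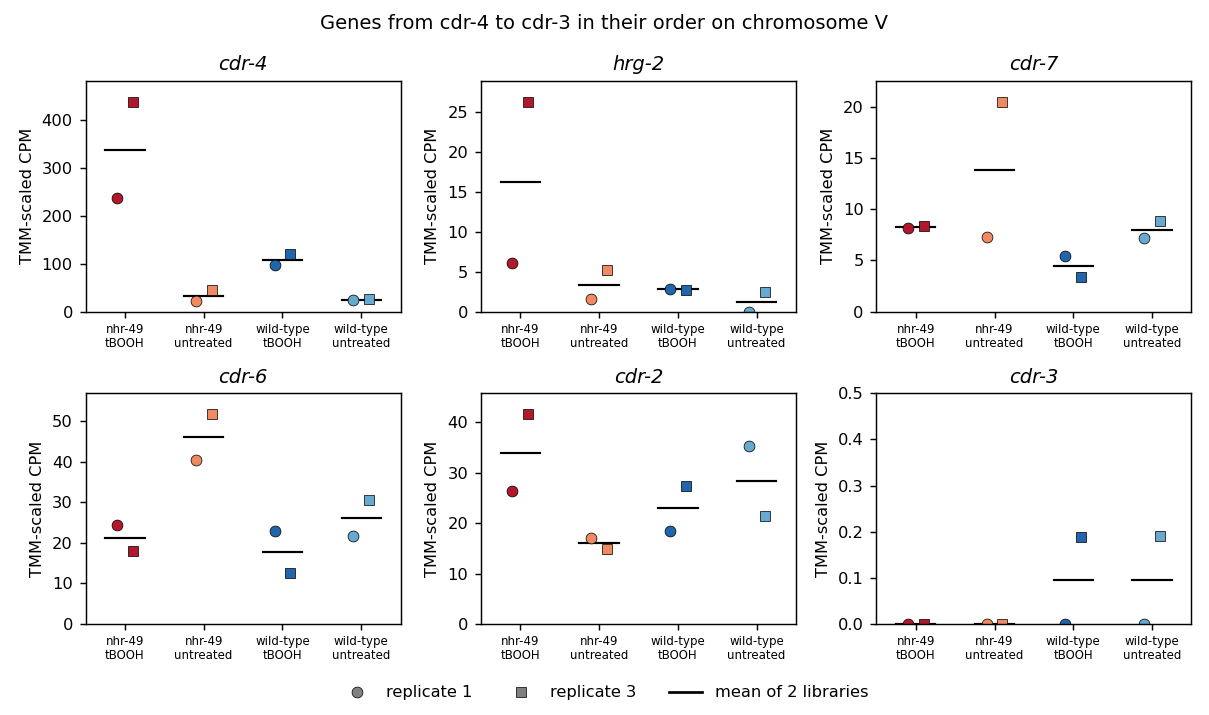
Levels of the 6 genes from *cdr-4* to *cdr-3* in their order on chromosome V, in TMM-scaled CPM per library on linear axes that differ between panels; circles are replicate 1, squares replicate 3 and lines the mean of 2 libraries. *cdr-4* is the gene whose tBOOH libraries all lie above its untreated libraries, and *cdr-3* is near 0 throughout.

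Replicates 1 and 3 differed most in the *nhr-49* groups. In tBOOH *nhr-49* worms, 7 of the 8 genes were higher in replicate 3 than in replicate 1 (1.52-fold for *smf-3* to 3.56-fold for *mtl-1*, with *cdr-4* at 1.85-fold), and *cdr-1* was lower at 0.688-fold. Over all genes kept, 51.1% were higher in replicate 3 of that group. The summed yolk transcripts ran the other way, at 66124 CPM in replicate 1 and 3503 CPM in replicate 3, and the summed hypodermis markers were 604 and 1420 CPM; their part in the spread of the 8 genes was not tested. Without both *nhr-49* libraries of replicate 3, 1 library is left in each *nhr-49* group. The *cdr-4* rise with tBOOH in *nhr-49* worms was then 3.41 on the log2 scale, against 3.34 with all libraries, while *mtl-1* and *ftn-1* were not called.

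Across the 8 libraries, the genes with patterns most like those of the list, by Pearson's r of log2 CPM among genes with a mean of at least 10 CPM, give a description of where each pattern recurs. For *cdr-4* these were F57B10.9 (r = 0.993), Y58A7A.3 (0.991) and *rabn-5* (0.988), and for *ftn-1* they were *fmo-4* (0.986), *pqn-44* (0.980) and F55C12.1 (0.974). For *ftn-2* the nearest gene was F59B1.8 (0.958), for *cdr-2* *uev-1* (0.945) and for *cdr-1* *fnta-1* (0.917). The 8 points share group, library and depth, and *mtl-1*, *mtl-2* and *smf-3* were left out because their mean counts were under 20.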

How the data were processed

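The authors depleted ribosomal RNA, built low-input cDNA libraries, sequenced them on an Illumina NextSeq and aligned reads to ce10 with STAR. The deposited values used here are raw counts per gene; the counting tool, annotation and use of strand are not given in the sources used here, nor is the treatment of reads shared by paralogues. The labels and the methods call the sequencing paired-end, while the methods describe the aligned reads as single-end. A second deposited table of normalized CPM was not used.

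R 4.3.3 was used; the main tests were those of edgeR 4.0.16, which loads limma 3.58.1, and an alternative fit was made in DESeq2 1.42.0. Counts were scaled by TMM, a gene was kept when 2 or more libraries exceeded a CPM of 1, and dispersions came from all 8 libraries. Two-group comparisons used edgeR's exact test (2-sided) and the interaction its quasi-likelihood test. SEs came from the negative binomial fit. A group whose libraries all hold 3 counts or fewer gives a bound against 3 counts per library, averaged over the group. Intervals cover counting error only. The tests were run on simulated data with changes placed only in tBOOH wild-type libraries and on genes well above the counting floor. That simulation does not cover changes of genes near the floor. Totals of 2157766 to 5852727 counts limit genes with few reads.

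The 8 genes, the wider list and the rules were chosen with earlier results of these data known. Of the wider list, genes called in a comparison and other *cdr* genes are named. *cdr-5*, also on that list, was not found under that name in the count table. Gene names and the order on the chromosome come from WBcel235, with no coordinates given since the builds differ. Promoter motifs were not analysed here.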

Additional observations from a re-analysis of the deposited data

How the results depend on the processing

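With 2 libraries per group, calls depend on how the spread is estimated. Where a library is left out, 1 is left in its group, and the spread is then taken from the other groups. Of the 8 genes, the number called with tBOOH in wild-type worms was 1, 2 with dispersions from the 4 libraries compared (*ftn-1* added), and 0 to 1 when 1 library was left out. In *nhr-49* worms it was 3, 1 in the quasi-likelihood test, 1 without both *nhr-49* libraries of replicate 3 (chosen after seeing the data), and 1 to 3 when 1 library was left out. Between genotypes with tBOOH it was 1, 0 in the quasi-likelihood test, and 0 to 3 when 1 library was left out. Log2 fold changes of the uncalled genes were often smaller than their errors, and leaving out 1 or both libraries of a replicate turned the sign of several. With tBOOH in wild-type worms the ranges were -0.0154 to 4.85 for *mtl-1*, -0.14 to 0.30 for *mtl-2*, -1.01 to 0.90 for *cdr-1*, -0.94 to 0.36 for *cdr-2* and -1.29 to 0.0896 for *cdr-6*; in *nhr-49* worms they were -1.68 to 0.99 for *mtl-2* and -1.31 to 0.19 for *cdr-7*. Values for *mtl-1* against libraries at 0 depend on the prior count. Between the untreated genotypes they were -0.41 to 1.50 for *mtl-2*, -0.40 to 0.17 for *ftn-2*, -0.0462 to 0.79 for *cdr-1* and -0.17 to 0.81 for *cdr-4*, and between the tBOOH genotypes -0.27 to 0.50 for *mtl-2*, -0.14 to 1.85 for *ftn-1* and -0.77 to 0.53 for *smf-3*. For the interaction they were -1.77 to 0.58 for *mtl-2* and -0.0575 to 1.06 for *cdr-1*. RLE normalization and DESeq2's size factors, in place of TMM, moved the median of all genes by at most 0.081 on the log2 scale. Over all genes, the quasi-likelihood test called 233 in place of 766 with tBOOH in wild-type, 218 in place of 664 in *nhr-49*, 20 in place of 143 between untreated and 51 in place of 329 between tBOOH genotypes. Dispersions from the 4 libraries gave 2317 and 258 with tBOOH in wild-type and *nhr-49* worms and 148 and 329 between genotypes, the likelihood ratio test gave 228 between untreated genotypes, and leaving out 1 library gave 150 to 336, 327 to 1111, 32 to 668 and 82 to 689 in these 4 comparisons. The interaction had 0 calls, 11 in the likelihood ratio test, 16 in DESeq2, 113 without a filter and 1 without both *nhr-49* libraries of replicate 3, none of them among the 8. Of the wider list, the 4 called genes in each tBOOH comparison became 2 in the quasi-likelihood test, 7 in wild-type and 1 in *nhr-49* worms with 4-library dispersions, and 0 to 1 in wild-type and 1 to 6 in *nhr-49* worms when 1 library was left out. The shared replicate numbers rest on the labels alone (correlation of deviations 0.05 to 0.32, 2 pairs per comparison); with a replicate block in the quasi-likelihood test the 8 genes gave 1 call in wild-type worms, 2 in *nhr-49* worms (*mtl-1* lost), 0 between untreated and 1 between tBOOH genotypes, and all genes gave 624, 465, 57 and 162. DESeq2 gave *mtl-1* no adjusted p for tBOOH against untreated in either genotype. In the interaction it gave none for *mtl-1*, *mtl-2*, *ftn-1*, *smf-3* and *cdr-1*, so it could not call these genes there.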
